A study of Mus musculus with 19 samples.

Results

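Expression of 36 genes of cholesterol and fatty acid synthesis was followed across prostate tissue, reprogrammed grafts and cultured fibroblasts by RNA-seq. The genes were chosen by name and function, with earlier results of these data known. They run from the regulators of the pathway through to the enzymes that lengthen and desaturate fatty acids, and are 36 of 23284 genes listed per sample. All 36 were found, 35 under their own symbol and Msmo1 under its older name Sc4mol. The samples, all labelled C57BL/6, were 6 MEF samples (mouse embryonic fibroblasts from E13.5 embryos, heterozygous for a targeted LacZ allele according to the labels), 6 prostate samples with a growth duration of 6 weeks and 7 renal grafts. The grafts were recombinants of induced mouse epithelial cells with rat urogenital mesenchyme, harvested 6 weeks after implantation in nude mice. The induced cells came from fibroblasts that had received retroviruses for the OSKM reprogramming factors and were then kept in basal epithelial medium, and male hosts, given testosterone pellets, carried the grafts under the kidney capsule. The labels give all 7 grafts a single name. Graft 1 to graft 5 are iEpt+NAF by the study's sample codes, in which the cells had also received lentiviral master regulators including Foxa1, and graft 6 and graft 7 are taken as iEpt only by elimination.

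Cells make cholesterol and fatty acids from acetyl-CoA under the control of the SREBP transcription factors, which are held in the endoplasmic reticulum when sterols are plentiful. The escort protein Scap carries SREBPs to the Golgi for cleavage, whereas the Insig proteins retain Scap. In prostate epithelium, androgens are known to raise the expression of many of these enzymes. Fibroblasts that divide in culture also use the pathway to build membrane.

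SREBPs bind sterol regulatory elements close to the start sites of their targets, usually beside boxes for the factors NF-Y and Sp1. RefSeq promoter windows (build GRCm38.p6, 250 bases before to 50 after a start site) were given for 29 of the 36 genes. The 3 windows below hold the degenerate element TCACNCCAN on either strand and are shown because they carry a sequence of the kind that SREBPs are known to bind. The capitals mark the matched element, and only that of Hmgcs1 is the full core TCACCCCAC.
Hmgcs1, chr13:119690204-119690232, plus strand: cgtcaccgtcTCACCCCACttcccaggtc
Srebf2, chr15:82147097-82147125, plus strand: tgacgcaccaTCACCCCATgagccgcttc
Msmo1, chr8:64733737-64733765, minus strand: ctcactattcTCACTCCATccgcgcagcc
The elements begin 137, 162 and 177 bases before the start sites. The degenerate element was found for 3 of the 29 genes (10.3%, against 4.95% of the 27025 genes in the table). Of all 32851 windows, 4.35% held it and 0.551% the core, which the degenerate form includes. The NF-Y box CCAAT was in the windows of 23 of the 29 genes (79.3%, against 41.1% of all genes in the table), and the GC box GGGCGG, bound by Sp1, in those of 24 (82.8%, against 38.2%). The E-box CACGTG, another sequence that SREBPs can bind, was in the windows of 5 genes (Scap, Insig1, Hsd17b7, Sc5d and Dhcr7; 17.2%, against 8.09%). These matches describe letters in a short window and are not binding sites measured here.

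Every level is a log2 value of DESeq-normalized reads. MEFs, prostates and graft 1 to graft 5 (17 samples) were normalized as a first table and graft 6 and graft 7 as a second, so tests were run only within the first. The reads counted on genes, estimated from the values, ranged from 16767295 to 26152350 in the first table and were 6629666 and 9662062 in the second. The limit set by depth, taken as 3 reads, lay at log2 values between 1.68 and 2.34 for those 17 samples and covers counting error only. The tissues were checked on marker genes. The 7 secretory genes of the prostate, such as Sbp and Pbsn, had a summed log2 level of 20.48 to 21.45 in prostate, 10.41 to 12.57 in graft 1 to graft 5 and 7.26 to 12.02 in MEFs, and the 8 fibroblast genes one of 18.93 to 19.36 in MEFs and of 13.63 to 16.27 in all other samples of that table. The secretory genes of the grafts thus lay far below the prostate level, and their sums overlapped those of some MEFs. MEF 5 and MEF 6 were at 7.45 and 7.26, below every graft of the first table. The overlap lay with the other MEF libraries, at 10.37 to 12.02, which are those that held prostate transcripts (given below). The part of these transcripts in the overlap was not tested. The count that follows was made against all MEF libraries together. Of the 7, Apof and Spink3 were higher in grafts than in MEFs (28.6%, near the 29.9% of all genes), by at least 2-fold with a limma adjusted p under 0.05. The 8 epithelial genes of the grafts (14.90 to 16.24) overlapped those of prostate (15.82 to 16.31).

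Several features of the libraries stood apart. The 6 MEF libraries formed 3 close pairs (MEF 1 with MEF 6, 2 with 5 and 3 with 4). Their chi-square per gene was 5.47 to 31.61, above sampling noise but far under the 303.47 to 471.49 of the other 12 MEF pairings. The 6 were kept apart, but members of a pair may not be independent, which would make p-values too small. Tests were therefore repeated on the 3 pair means. In prostate against MEFs 0 of 35 genes then changed direction or whether they passed (defined below), and in grafts against MEFs 1 of 35 did. MEF 1 to MEF 4 held prostate transcripts at 0.0539% to 0.18% of the prostate level, which would supply 7.98% of the Elovl7 level in MEF 1 and no more than 0.412% of the level of any of the genes in the other MEF libraries. Kidney transcripts varied among grafts. In prostate against MEFs only Lrp2 of 10 nephron genes was high enough to be tested. In grafts against MEFs all 10 were tested, and all were higher (29.9% of all genes were). Most of the 10 genes were thus tested only through their graft level, so this count is no test of kidney content. The summed nephron level was 10.36 to 17.43 in graft 1 to graft 5, 2.26 to 6.78 in prostate and 7.23 to 8.47 in MEFs. In MEFs Lrp2 made up nearly all of it, and Kap, the most abundant nephron gene of the grafts, was at 3.54 or less. The summed level of 6 macrophage genes was 13.34 and 13.20 in MEF 1 and MEF 6 and 7.48 to 7.85 in the other MEF libraries, against 10.56 to 12.47 in prostate and 13.25 to 14.44 in graft 1 to graft 5. Skeletal muscle transcripts (6 genes) stood at 16.12, 15.33 and 15.52 in graft 1 to graft 3 and at 12.10 and 10.14 in graft 4 and graft 5. The part of these cells in the lipid genes was not tested. Nothing in the labels says whether samples of a group came from separate cultures or animals, so p-values measure the spread between these samples. In whole tissue, fewer cells of a type and less RNA per cell cannot be told apart.

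Of the genes that passed, more were lower than higher in prostate and in grafts against MEFs. A gene passed with a limma adjusted p under 0.05 and at least a 2-fold change. Of the 35 genes that could be tested, 16 passed as lower and 5 as higher in prostate than in MEFs (45.7% and 14.3%), where 20.5% and 27.8% of all 14560 genes tested did so. The median log2 fold change was -0.87 for the 35 genes and 0.17 for all genes. In the grafts against MEFs 13 genes passed as lower and 4 as higher (37.1% and 11.4%), against 12.0% and 29.9% of 16121 genes, with medians of -0.75 and 0.26. Prostate and grafts were closer to each other, with 5 genes lower and 2 higher in prostate (14.3% and 5.71%), against 23.0% and 10.3% of 16353 genes, and medians of -0.17 and -0.11. The mean was highest in MEFs and lowest in prostate for 13 genes and highest in MEFs and lowest in grafts for 11. The comparisons share their samples, so these counts are not independent of each other.

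Quantile normalization moved the median change of all genes by -0.14, -0.48 and 0.24 in the 3 comparisons, and the share of higher genes among those that passed from 57.6% to 48.1%, from 71.3% to 42.5% and from 30.9% to 56.4%. After this scaling 15 of the 35 genes were lower and 3 higher in prostate than in MEFs (42.9% and 8.57%, against 23.7% and 22.0% of all genes). In grafts against MEFs 11 were lower and 4 higher (31.4% and 11.4%, against 24.4% and 18%), so the share of lower genes came closer to that of all genes. Sqle, Fasn, Scd1 and Fads2 no longer passed as lower in grafts, and Mvk and Idi1 then did. In prostate against grafts 5 were lower and 2 higher (14.3% and 5.71%, against 15.8% and 20.4%).

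**Figure D1:**
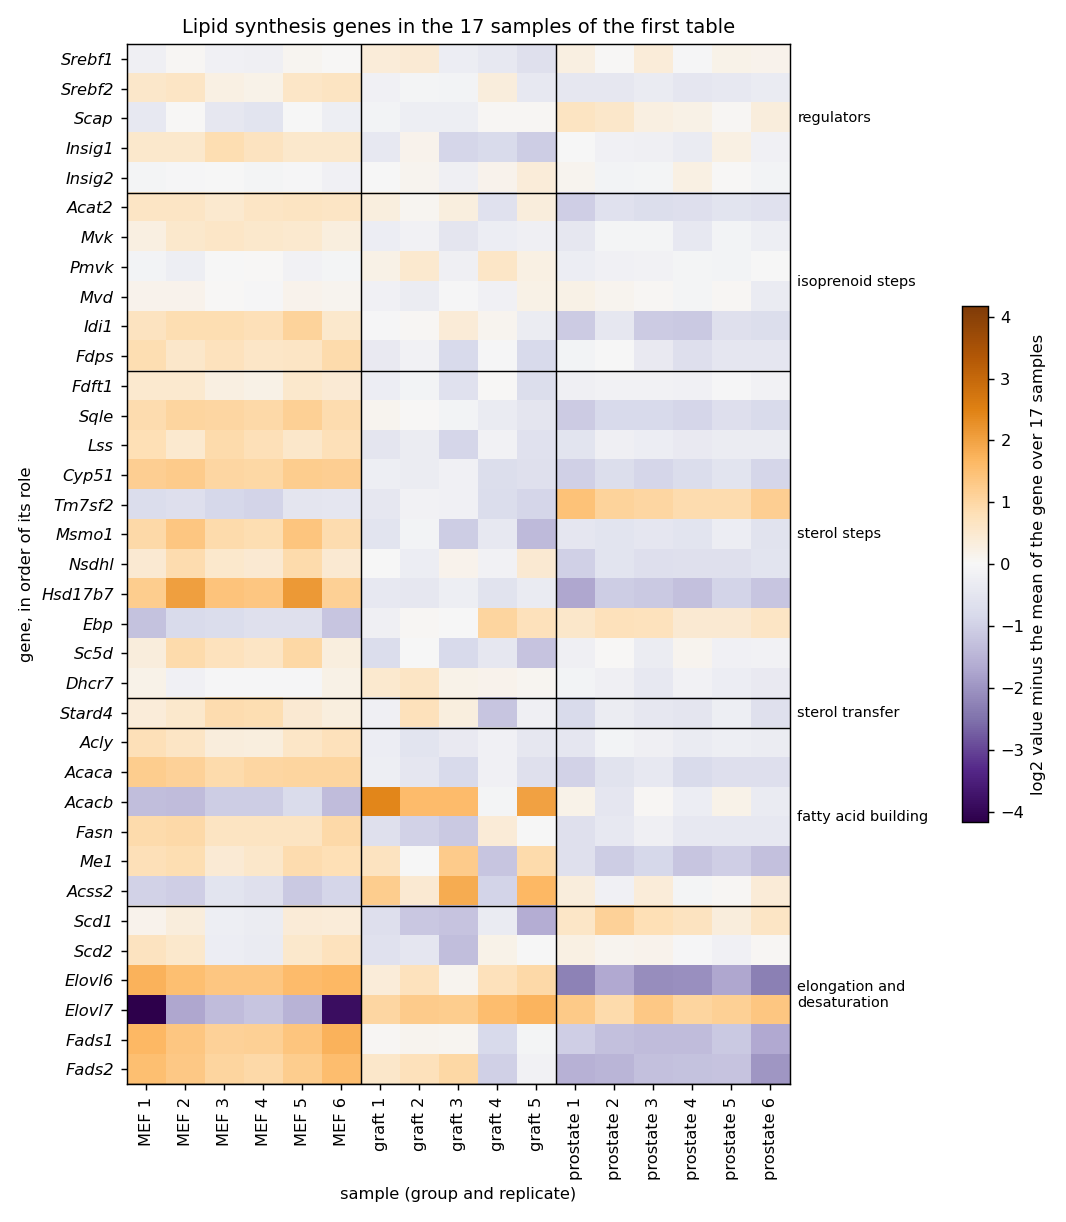
Rows are 35 genes ordered by role and columns the 17 samples of the first table; colour gives the log2 value minus the mean of that gene over the 17 samples (orange higher, purple lower). Most rows are orange in the 6 MEF columns, while Tm7sf2, Ebp, Acacb, Acss2 and Elovl7 are purple there.

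Among the 5 regulators, Insig1 was the one that passed, as lower in grafts than in MEFs, where 12.0% of all genes did so. In prostate against MEFs 4 of the 5 had an adjusted p under 0.05 (limma) with a change under 2-fold. Such adjusted p were common: with no minimum fold, 6544 of all 14560 genes were higher and 5228 lower. Srebf2, which encodes the SREBP of sterol synthesis (chromosome 15, 81977696 to 82035806, plus strand, mm9), had values of 11.92 to 12.41 in MEFs (median 12.33), 11.29 to 11.42 in prostate (median 11.33) and 11.58, 11.66, 11.63, 12.08 and 11.35 in graft 1 to graft 5. Every prostate lay below every MEF sample, and the grafts lay across the gap. The difference of prostate from MEFs was -0.87 ± 0.09 (log2 fold change ± SE, limma adjusted p = 8.15e-07), and it reached -1.03 when only MEF 5 and MEF 6 were kept.

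Srebf1, which encodes the SREBP of fatty acid synthesis, lay between 10.93 and 11.24 in MEFs (median 11.06) and between 11.11 and 11.52 in prostate (median 11.32). Its values in the grafts, 11.51, 11.60, 10.86, 10.73 and 10.51, spanned more than both of those ranges together. Prostate was higher than MEFs by 0.24 ± 0.08 (adjusted p = 0.0178, limma), with overlapping values, and grafts against MEFs gave -0.03 ± 0.19 (adjusted p = 0.886, limma), a value whose sign changed with scaling and with the graft left out. Within a sample, the log2 value of Srebf2 exceeded that of Srebf1 by 0.98 to 1.38 in MEFs, by 0.06 to 1.35 in grafts and by -0.12 to 0.18 in prostate, so the balance of the 2 genes in prostate did not overlap that in MEFs.

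Scap, the escort, was at 10.45 to 10.996 in MEFs (median 10.66), at 11.02 to 11.64 in prostate (median 11.29) and at 10.85, 10.74, 10.72, 11.02 and 11.04 in the grafts. All prostates were above all MEF samples, by 0.61 ± 0.12 (adjusted p = 4.36e-04, limma). In the annotation, 985 exonic bases of Scap overlap 5830462I19Rik on the opposite strand, and the library kit does not keep strand, so reads of the 2 cannot be told apart there. Insig1, itself a sterol-responsive target that holds Scap back, fell in grafts. Its values were 10.65 to 10.98 in MEFs (median 10.67), 9.79 to 10.36 in prostate (median 9.96) and 9.71, 10.28, 9.22, 9.32 and 9.07 in the grafts, all below MEFs. The difference of grafts from MEFs was -1.22 ± 0.19 (limma adjusted p = 2.07e-04), and -0.94 without graft 1, graft 3 and graft 5, the 3 with the most Kap. Insig2, which acts like Insig1 but is not driven by SREBPs in most cells, was at 9.52 to 9.66 in MEFs (median 9.62), at 9.57 to 9.92 in prostate (median 9.64) and at 9.66, 9.79, 9.49, 9.84 and 10.07 in grafts, so the groups overlapped. It passed in no comparison.

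**Figure D2:**
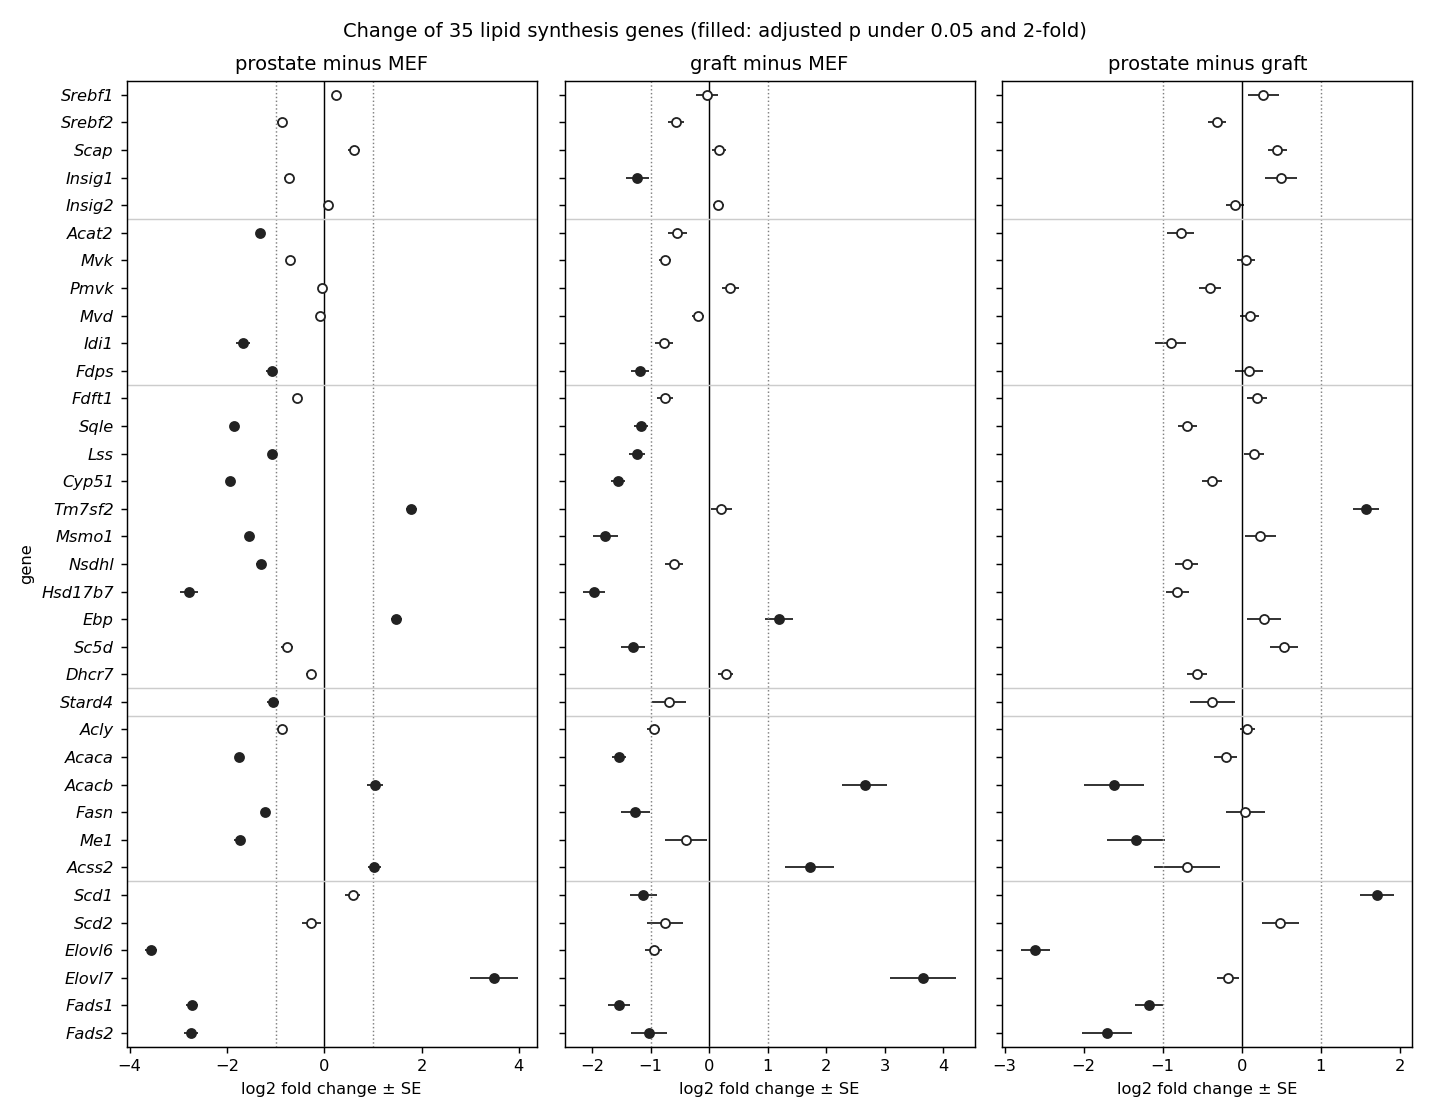
Each point is the log2 fold change of a gene with its limma standard error, for prostate minus MEF, graft minus MEF and prostate minus graft; filled points passed (adjusted p under 0.05 and at least 2-fold, dotted lines) and open points did not. In the first panel 16 filled points lie to the left and 5 to the right, and in the third 5 and 2.

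Of the 6 enzymes from acetyl-CoA to isoprenoids that could be tested, 3 passed as lower in prostate than in MEFs and 1 in grafts. Of all genes, 20.5% and 12.0% did so, and the graft count was near that share. The thiolase Acat2 was 2.48-fold lower in prostate than in MEFs (log2 fold change -1.31 ± 0.08, adjusted p = 5.45e-09, limma), the isomerase Idi1 3.16-fold (-1.66 ± 0.15, adjusted p = 2.04e-07, limma) and Fdps, which makes farnesyl diphosphate, 2.12-fold (-1.08 ± 0.11, adjusted p = 9.47e-07, limma). Fdps was also 2.26-fold lower in grafts (-1.18 ± 0.16, adjusted p = 6.37e-05, limma), and -0.83 without the 3 grafts with the most Kap. By contrast, mevalonate kinase Mvk was lower by 0.69 in prostate and 0.75 in grafts on the log2 scale with adjusted p of 1.17e-05 and 6.60e-05 (limma), under the 2-fold threshold, and the next kinase Pmvk (-0.04) and the decarboxylase Mvd (-0.09) did not pass in prostate. Hmgcs1, the synthase that makes HMG-CoA, was listed at the level of 0 reads in every sample of both tables, from -2.08 to 1.5, in MEFs, prostate and grafts alike, and was not tested. The gene had no single entry in the mm9 annotation used here, and whether these values come from low expression or from how reads were counted was not tested.

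From squalene to cholesterol, most steps were lower outside MEFs, and a few sterol enzymes went the other way. Of 11 sterol enzymes, 6 were lower and 2 higher in prostate, and 6 were lower and 1 higher in grafts, each against MEFs. Of all genes, 20.5% were lower and 27.8% higher in prostate, and 12.0% lower and 29.9% higher in grafts. Hsd17b7, the keto-reductase of the sterol demethylation complex (chromosome 1, 171879666 to 171899372, minus strand, mm9), had values of 10.33 to 11.30 in MEFs (median 10.55), 7.44 to 8.24 in prostate (median 8.0) and 8.74, 8.71, 8.91, 8.59 and 8.82 in the grafts. The 3 groups did not overlap. Its level was 6.87-fold lower in prostate than in MEFs (-2.78 ± 0.19, adjusted p = 1.58e-08, limma) and 3.91-fold lower in grafts (-1.97 ± 0.18, adjusted p = 5.02e-06, limma), and prostate was below grafts by 0.81 on the log2 scale, under the 2-fold threshold. Its partners in the complex are Msmo1 and Nsdhl. The methyl oxidase Msmo1 was at 11.42 to 11.92 in MEFs (median 11.49), at 9.97 to 10.28 in prostate (median 10.04) and at 9.99, 10.43, 9.47, 10.14 and 9.15 in grafts. It was 2.90-fold lower in prostate (-1.54 ± 0.10, adjusted p = 1.17e-08, limma) and 3.42-fold lower in grafts (-1.77 ± 0.22, adjusted p = 3.25e-05, limma), whereas the dehydrogenase Nsdhl was 2.46-fold lower in prostate (-1.30 ± 0.11) and 1.52-fold lower in grafts (-0.60 ± 0.15), the latter under the threshold.

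Cyp51, the lanosterol demethylase, also separated prostate and grafts from MEFs. It was at 12.09 to 12.36 in MEFs (median 12.30), at 10.10 to 10.56 in prostate (median 10.29) and at 10.86, 10.79, 10.94, 10.40 and 10.47 in grafts, 3.82-fold lower in prostate (-1.93 ± 0.08, adjusted p = 2.07e-10, limma) and 2.94-fold lower in grafts (-1.56 ± 0.11, adjusted p = 8.04e-07, limma) than in MEFs. Squalene epoxidase Sqle was 3.61-fold lower in prostate (-1.85 ± 0.07) and 2.24-fold lower in grafts (-1.16 ± 0.12), and lanosterol synthase Lss 2.10-fold (-1.07 ± 0.08) and 2.34-fold (-1.23 ± 0.14). The graft differences were -0.99 for Sqle without graft 4 and graft 5, and -0.96 for Lss without the 3 grafts with the most Kap. Squalene synthase Fdft1 changed by less than 2-fold in either tissue, and 769 of its exonic bases overlap Ctsb on the opposite strand.

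Tm7sf2 and Ebp stood apart from their neighbours in the pathway. Tm7sf2, a sterol reductase that shares its reaction with Lbr, was at 8.83 to 9.37 in prostate (median 8.99), at 7.01 to 7.46 in MEFs (median 7.23) and at 7.48, 7.78, 7.76, 7.18 and 7.04 in the grafts. Prostate was above all other samples, 3.45-fold over MEFs (1.79 ± 0.11, adjusted p = 9.25e-09, limma) and 2.98-fold over grafts (1.58 ± 0.17, adjusted p = 1.76e-05, limma). Its partner in that reaction, Lbr, went the other way in prostate against MEFs (-1.21 ± 0.11, adjusted p = 3.70e-07, limma). In the annotation, 532 exonic bases of Tm7sf2 overlap 1110014N23Rik on the same strand, so reads there are shared. Ebp, the sterol isomerase on the X chromosome (7762455 to 7770638, minus strand, mm9), was at 10.16 to 10.46 in prostate (median 10.29), 8.44 to 9.05 in MEFs (median 8.93) and 9.48, 9.73, 9.67, 10.75 and 10.47 in grafts. All prostates and grafts were above all MEF samples, by 2.79-fold (1.48 ± 0.12, adjusted p = 6.74e-08, limma) and 2.30-fold (1.2 ± 0.24, adjusted p = 0.00103, limma). Graft 4 and graft 5 were the highest, and without them the graft difference was 0.81. Of the last steps, the desaturase Sc5d was 2.47-fold lower in grafts (-1.31 ± 0.21, adjusted p = 2.19e-04, limma, and -0.89 without the 3 grafts with the most Kap). The reductase Dhcr7 differed from MEFs by 1.22-fold in each tissue, in opposite directions, and passed in neither. It was lower in prostate (-0.28, adjusted p = 0.0069, limma) and had a higher mean in grafts (0.28, adjusted p = 0.0647, limma).

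Stard4, which moves sterols between membranes and is a known SREBP-2 target, was 2.08-fold lower in prostate than in MEFs (-1.06 ± 0.12, adjusted p = 3.82e-06, limma). The fall in prostate sat at the 2-fold threshold: it was -0.997 without prostate 1, -0.992 without MEF 3, -1.0 without MEF 4 (just under 2-fold) and -0.88 with MEF 5 and MEF 6 alone. In the grafts Stard4 ranged from 7.83 in graft 4 to 9.79 in graft 2 and did not pass.

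**Figure D3:**
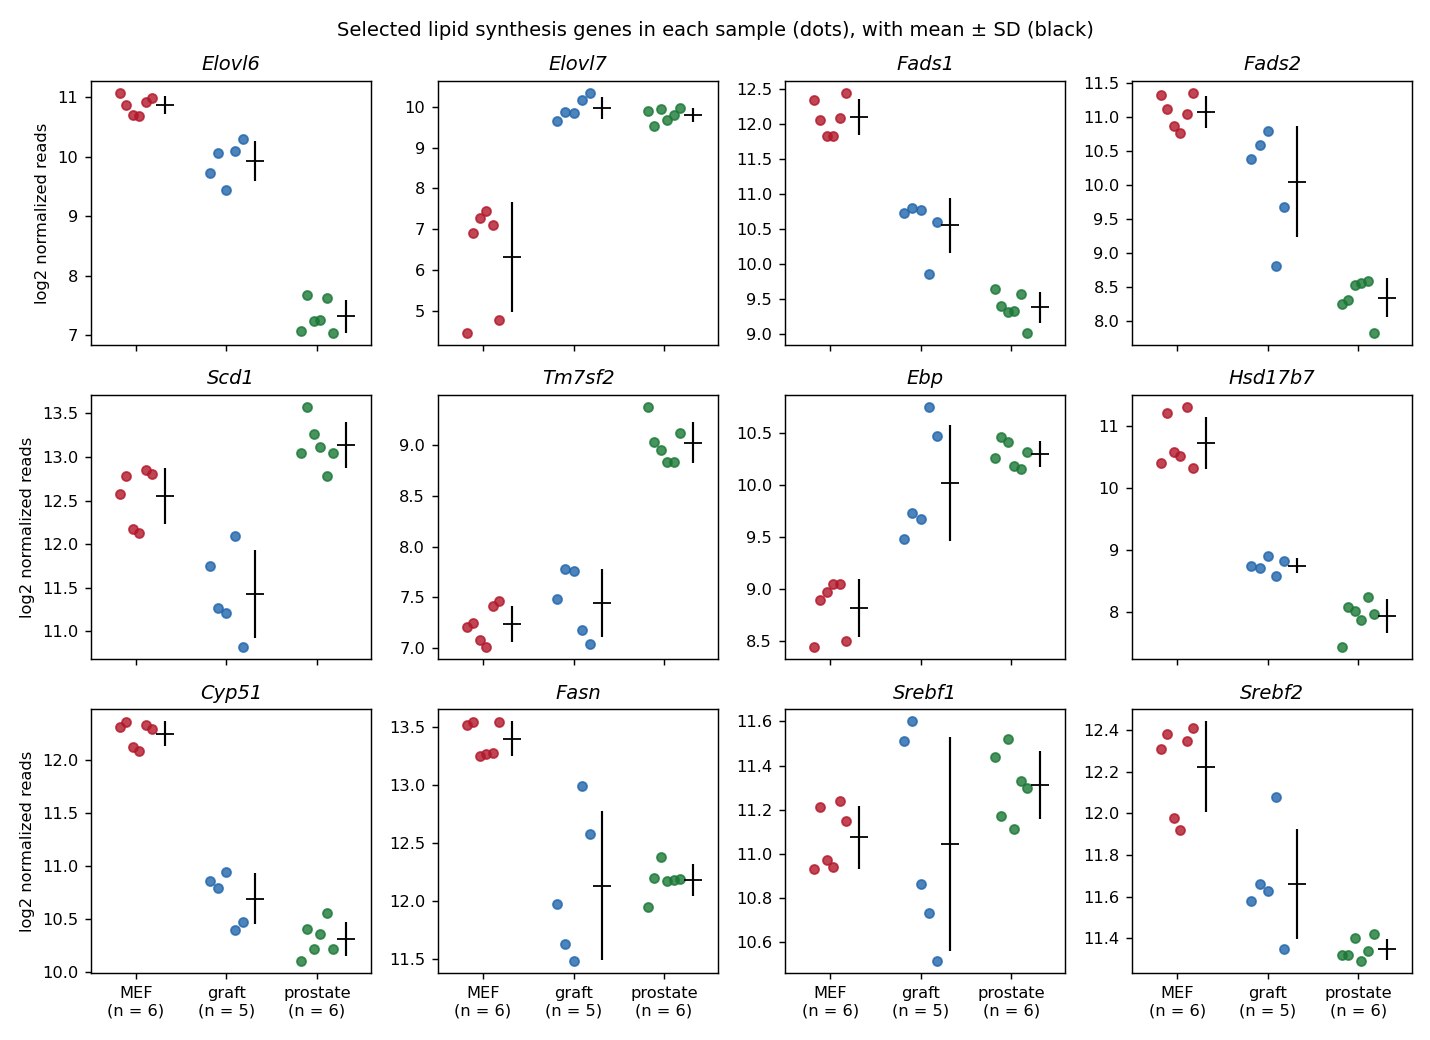
Dots are the log2 values of 12 genes in each MEF sample, each graft of the first table and each prostate. The black mark and line give the group mean ± SD. Elovl6, Fads1, Hsd17b7 and Cyp51 step down from MEF through graft to prostate, Tm7sf2 is high in prostate alone, and the grafts are the most spread group for Fasn, Ebp, Fads2 and Srebf1.

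Among the enzymes that build fatty acids, the 2 forms of acetyl-CoA carboxylase moved in opposite directions. Acaca, the cytosolic form that supplies fatty acid synthesis (chromosome 11, 83943174 to 84215153, plus strand, mm9), was at 10.00 to 10.29 in MEFs (median 10.13), at 8.11 to 8.66 in prostate (median 8.4) and at 8.81, 8.58, 8.24, 8.89 and 8.44 in grafts. It was 3.35-fold lower in prostate (-1.74 ± 0.09, adjusted p = 1.01e-09, limma) and 2.91-fold lower in grafts (-1.54 ± 0.12, adjusted p = 1.35e-06, limma). Acacb, the form at mitochondria whose product restrains fatty acid oxidation (chromosome 5, 114596544 to 114700770, plus strand, mm9), was at 5.24 to 5.84 in MEFs (median 5.41), at 6.13 to 6.79 in prostate (median 6.47) and at 9.04, 8.18, 8.19, 6.52 and 8.62 in grafts. It was 2.05-fold higher in prostate (1.04 ± 0.17, adjusted p = 7.68e-05, limma) and 6.31-fold higher in grafts (2.66 ± 0.38, adjusted p = 1.11e-04, limma). The prostate value was at the threshold, falling to 0.98 without prostate 1 or prostate 5, to 0.998 and 0.997 without MEF 2 or MEF 6, to 0.95 with MEF 5 and MEF 6 alone and to 0.33 (adjusted p = 0.124, limma) after quantile normalization. The log2 value of Acaca exceeded that of Acacb by 4.3 to 5.0 in MEFs, by 1.33 to 2.37 in prostate and by -0.23 to 2.37 in grafts.

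Acly and Acss2, alternative suppliers of cytosolic acetyl-CoA, also parted. Acly, which splits citrate, was 1.82-fold lower in prostate and 1.92-fold lower in grafts than in MEFs, with no overlap of groups but under the threshold. Acss2, which activates acetate, was at 7.62 to 8.21 in MEFs (median 7.82), at 8.58 to 9.17 in prostate (median 8.96) and at 9.99, 9.23, 10.60, 7.83 and 10.40 in grafts. It was 2.04-fold higher in prostate (1.03 ± 0.14, adjusted p = 1.09e-05, limma), again at the threshold: 0.990, 0.984 and 0.978 without prostate 1, 3 or 6, 0.998 and 0.974 without MEF 2 or MEF 5, and 0.78 after quantile normalization. In grafts it was 3.30-fold higher (1.72 ± 0.42, adjusted p = 0.00399, limma), with graft 4 inside the MEF range. This difference no longer passed without the 3 grafts with the most Kap (0.64, adjusted p = 0.138, limma) or with MEF 5 and MEF 6 alone (adjusted p = 0.0807, limma). Of its exonic bases 335 overlap 4930471I20Rik on the opposite strand.

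Fasn, the fatty acid synthase, was 2.32-fold lower in prostate (-1.21 ± 0.08, adjusted p = 1.77e-08, limma) and 2.40-fold lower in grafts (-1.26 ± 0.25, adjusted p = 9.23e-04, limma) than in MEFs. Its values were 13.25 to 13.54 in MEFs, 11.95 to 12.38 in prostate and 11.97, 11.63, 11.48, 12.99 and 12.58 in grafts. Prostate and grafts differed by 0.05 ± 0.24 (adjusted p = 0.877, limma). After quantile normalization the falls in Fasn were -0.88 in prostate and -0.69 in grafts, and with MEF 5 and MEF 6 alone the graft difference had an adjusted p of 0.0526 (limma). Malic enzyme Me1, a source of NADPH for synthesis, was 3.33-fold lower in prostate than in MEFs (-1.73 ± 0.12, adjusted p = 1.33e-08, limma) and 2.53-fold lower than in grafts (-1.34 ± 0.37, adjusted p = 0.00894, limma).

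The widest differences lay in the elongases and desaturases. Elovl6, which lengthens palmitate (chromosome 3, 129235304 to 129341413, plus strand, mm9), had values of 10.69 to 11.07 in MEFs (median 10.89), 9.73, 10.07, 9.44, 10.10 and 10.30 in the grafts and 7.04 to 7.67 in prostate (median 7.25). The groups formed 3 separate levels. Prostate was 11.8-fold below MEFs (-3.56 ± 0.12, adjusted p = 4.30e-11, limma) and 6.11-fold below grafts (-2.61 ± 0.18, adjusted p = 1.09e-06, limma), and grafts were below MEFs by 0.95 ± 0.15, a difference that passed the threshold without graft 5 (-1.04). Elovl7, an elongase of longer saturated chains (chromosome 13, 109004598 to 109077299, plus strand, mm9), ran the other way: 9.54 to 9.97 in prostate (median 9.85), 9.65, 9.88, 9.85, 10.16 and 10.34 in grafts and 4.45, 6.90, 7.28, 7.44, 7.10 and 4.76 in MEF 1 to MEF 6. All prostates and grafts were far above all MEF samples, by 11.2-fold (3.49 ± 0.50, adjusted p = 2.30e-05, limma) and 12.6-fold (3.66 ± 0.56, adjusted p = 1.72e-04, limma). Prostate and grafts themselves differed by -0.17 ± 0.13 (adjusted p = 0.292, limma). The MEF pair with the lowest Elovl7, MEF 1 and MEF 6, was also a close pair of libraries and the pair with macrophage transcripts, whose part was not tested. On the 3 pair means the adjusted p was 9.22e-05 against prostate and 0.00145 against grafts (limma). The log2 value of Elovl6 exceeded that of Elovl7 by 3.25 to 6.62 in MEFs, by -0.41 to 0.19 in grafts and by -2.93 to -1.87 in prostate.

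Fads1 and Fads2, the neighbouring desaturases of polyunsaturated fatty acids on chromosome 19 (10257378 to 10271360 on the plus strand and 10138654 to 10175993 on the minus strand, mm9), moved together. Fads1 was at 11.82 to 12.44 in MEFs (median 12.07), 10.73, 10.79, 10.77, 9.86 and 10.60 in grafts and 9.01 to 9.64 in prostate (median 9.36). Prostate was 6.59-fold below MEFs (-2.72 ± 0.13, adjusted p = 5.69e-10, limma), grafts 2.91-fold (-1.54 ± 0.18, adjusted p = 2.80e-05, limma), and prostate 2.26-fold below grafts (-1.18 ± 0.18, adjusted p = 2.07e-04, limma; -0.95 without the 3 grafts with the most Kap). Fads2 was at 10.76 to 11.35 in MEFs (median 11.08), 10.38, 10.59, 10.79, 8.81 and 9.67 in grafts and 7.82 to 8.59 in prostate (median 8.42), 6.64-fold below MEFs (-2.73 ± 0.14, adjusted p = 1.36e-09, limma) and 3.26-fold below grafts (-1.71 ± 0.32, adjusted p = 9.34e-04, limma) in prostate.

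The lower Fads2 of grafts against MEFs (-1.03 ± 0.31, adjusted p = 0.0131, limma) rested on graft 4 and graft 5. It was -0.72 without graft 4, -0.93 without graft 5 and -0.49 without both, -0.98 and -0.97 without MEF 1 or MEF 6, and on MEF pair means it had an adjusted p of 0.08 (limma).

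Scd1, the main stearoyl-CoA desaturase of liver and fat (chromosome 19, 44468941 to 44482199, minus strand, mm9), and Tm7sf2 were the 2 genes that passed as higher in prostate than in grafts. Their order depended on scaling, with log2 fold changes of 1.71 and 1.58 as deposited and 1.48 and 2.25 after quantile normalization. Scd1 was at 12.78 to 13.57 in prostate (median 13.08), 12.13 to 12.85 in MEFs (median 12.68) and 11.75, 11.27, 11.21, 12.10 and 10.82 in grafts. All grafts were below all prostates, which were 3.27-fold higher (1.71 ± 0.22, adjusted p = 6.40e-05, limma), and below all MEF samples, by 2.18-fold (-1.13 ± 0.23, adjusted p = 0.00127, limma). The difference of grafts from MEFs was -0.97 without graft 5, -0.87 without the 3 grafts with the most Kap and -0.70 after quantile normalization. Scd2, the form with a high level in brain and in embryos, was at 14.32 to 14.73 in prostate, 14.15 to 15.22 in MEFs and 13.18 to 14.68 in grafts, and passed in no comparison, although without graft 4 and graft 5 its difference of grafts from MEFs was -1.11 (adjusted p = 0.00876, limma). Scd1 and Scd2 are close relatives, and how reads shared between them were counted is not stated.

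Set against exon length, which allows levels of different genes to be compared, Scd2 had the highest level of the 35 genes in each group, 5480 ± 1650 normalized reads per kb in MEFs (SD, n = 6), 4380 ± 427 in prostate (SD, n = 6) and 3310 ± 1220 in grafts (SD, n = 5). Acacb had the lowest mean in each, 4.42 ± 0.79, 9.30 ± 1.84 and 32.9 ± 16.5, although in grafts it did not differ from Acaca (38.2 ± 7.02) beyond their spread. In prostate Scd1 ranked next at 1890 ± 362, then Acly at 731 ± 63.2 and Ebp at 546 ± 46.1, whose SD ranges show that Scd1 stood clear of Acly. Ebp ranked 26 of 35 in MEFs. In MEFs the ranks after Scd2 were held by Fads2 (1450 ± 237), Acly (1340 ± 183), Fads1 (1280 ± 230) and Scd1 (1270 ± 269), which did not differ beyond their spread. Fads2 ranked 17 in prostate (218 ± 40), and Elovl6 ranked 22 in MEFs (316 ± 33.5) and 34 in prostate (26.9 ± 5.23).

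**Figure D4:**
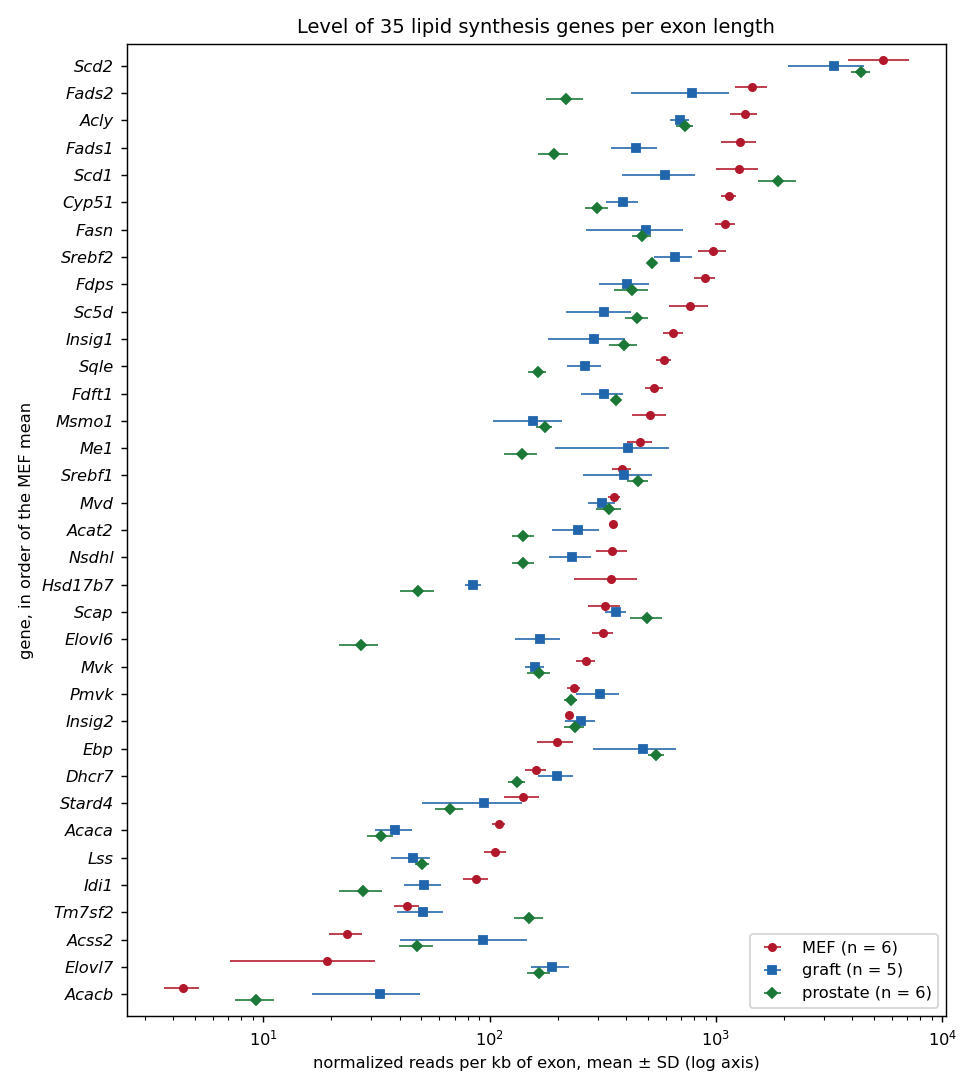
Horizontal position gives the normalized reads per kb of exon on a log axis, as mean ± SD, for MEFs, grafts of the first table and prostate; genes are ordered by their MEF mean. Scd2 is at the top with 5480, 3310 and 4380 and Acacb at the bottom with 4.42, 32.9 and 9.30.

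The grafts varied more among themselves than the other groups. The SD of the 35 genes had a median of 0.33 in grafts, 0.17 in prostate and 0.18 in MEFs. The most variable were Acss2 (SD 1.12), Me1 (0.98) and Acacb (0.96), and each was lowest in graft 4. In each, graft 2, which had the least Kap, lay above graft 4. Kap, an abundant transcript of the proximal tubule, was at 15.84, 9.77, 17, 12.34 and 16.64 in graft 1 to graft 5, and Acss2 and Me1 were higher in graft 1, graft 3 and graft 5, the 3 with the most Kap, than in graft 2 and graft 4. Acacb was as high in graft 2 (8.18) as in graft 3 (8.19). Leaving out the 3 grafts with the most Kap keeps graft 2 and graft 4 alone. Kidney content can then not be told apart from the low values of graft 4 or from the smaller group. In that setting the difference of grafts from MEFs was 1.90 for Acacb and -1.33 for Me1 (adjusted p = 0.00468, limma), which then passed. Against grafts, prostate then differed by -0.86 in Acacb (adjusted p = 0.114, limma), -0.40 in Me1 (adjusted p = 0.281, limma) and 0.39 in Acss2, in place of -1.62, -1.34 and -0.69, and without graft 4 the difference of prostate in Acss2 was -1.14 (adjusted p = 0.00254, limma). Elovl6 (-2.77) and Fads2 (-1.36) then were the 2 genes that passed as lower in prostate than in grafts. The part of kidney tissue in these values was not tested. Fat cells varied too: the summed level of 11 adipocyte genes ran from 9.30 to 14.29 in grafts, 9.71 to 10.52 in prostate and 7.97 to 10.57 in MEFs, and Adipoq was at 9.36 in graft 1, at 5.78 and 4.61 in graft 2 and graft 3 and under the level of 3 reads in graft 4 and graft 5. Their part, and that of any rat stromal reads counted on mouse genes, was not tested.

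**Figure D5:**
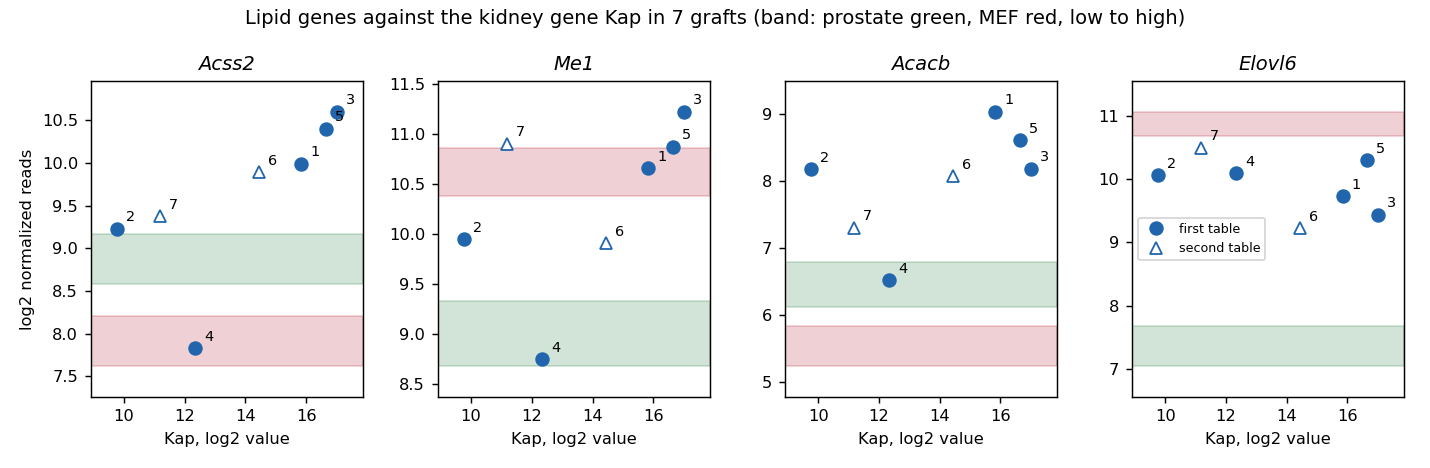
Each panel plots the log2 value of a gene against that of the kidney gene Kap in 7 grafts (filled, first table; open triangles, second table, normalized separately), numbered by replicate; bands show the lowest to highest value in prostate (green) and MEFs (red). Acss2 is highest in graft 3 and graft 5, where Kap is highest, while Elovl6 stays above the prostate band in all 7.

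The groups also differed in cell division. The 6 proliferation genes had a summed log2 level of 13.80 to 14.59 in MEFs, 11.71 to 12.93 in grafts and 10.83 to 11.42 in prostate. Against MEFs, 6 of 6 were lower in prostate and 4 of 6 in grafts (20.5% and 12.0% of all genes). In prostate 4 of the 6 were lower than in grafts. Of the 11 sterol enzymes, 1 passed as higher and 0 as lower in prostate than in grafts (10.3% and 23.0% of all genes), with a median log2 fold change of 0.16. With no minimum fold, 3978 of all 16353 genes were higher and 5115 lower in prostate than in grafts. A further 6 sterol enzymes had an adjusted p under 0.05 (limma) with a change under 2-fold. Sqle (-0.69), Cyp51 (-0.38), Nsdhl (-0.70), Hsd17b7 (-0.81) and Dhcr7 (-0.57) were lower in prostate, and Sc5d (0.54) was higher. The part of proliferation in the lipid genes was not tested.

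Graft 6 and graft 7, from the table normalized separately, are given beside the others without a test. Graft 6 had the lower value of the pair in 31 of 35 genes, with a median gap of 0.99 on the log2 scale. Of the 35 genes, 21 were below the range of graft 1 to graft 5 in graft 6 and 3 in graft 7, and 2 and 14 were above it. Mvk (6.67 and 8.85), Fasn (10.77 and 12.22), Scd2 (12.97 and 15.41) and Fads1 (9.91 and 12.27) show the gap between these grafts. Their tissue makeup differed as well, with summed levels in graft 6 and graft 7 of 18.11 and 11.10 for smooth muscle genes, 16.30 and 13.00 for skeletal muscle, 16.05 and 14.41 for fibroblast and 15.38 and 13.45 for epithelial genes, and the part of this in the gap was not tested. Both had more Acaca (9.23 and 9.51) and Fads2 (11.06 and 12.18) than any graft of the first table, and less Ebp (8.76 and 8.82) and Mvd (7.18 and 8.76). Elovl6 (9.22 and 10.5) was above all prostates, and Elovl7 (9.64 and 8.97) was just under the lowest graft of the first table in graft 6 and further below it in graft 7, yet above all MEF samples. Tm7sf2 (7.42 and 8.22) was below all prostates, and Scd1 (10.95 and 12.29) was too. Kap was at 14.44 and 11.17. The depth of these libraries was lower, and at 3 reads their values were 3.12 and 2.70.

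Genes around the pathway, from lists taken with earlier results of these data known, gave the setting. Among 8 genes of the processing and degradation of SREBPs, Mbtps1, the protease that makes the first cut, was higher in prostate than in MEFs by 0.75 ± 0.07 (adjusted p = 3.21e-07, limma), under the threshold, and passed against grafts (log2 fold change 1.001 ± 0.17, adjusted p = 5.22e-04, limma). It was the 1 higher gene there (12.5%, against 10.3% of all genes), and Creb3l3 was the 1 lower (12.5%, against 23.0%). Creb3l3 alone passed as higher in grafts than in MEFs (12.5%, against 29.9%). Of 19 genes of sterol uptake, export and esterification, 6 were higher and 9 lower in prostate than in MEFs (31.6% and 47.4%, against 27.8% and 20.5% of all genes), and 6 and 3 in grafts (31.6% and 15.8%, against 29.9% and 12.0%, near the share of all genes). The largest changes in prostate were those of the sterol hydroxylase Cyp27a1 (4.19 ± 0.12, adjusted p = 1.19e-11, limma) and the endocytic receptor Lrp1 (-4.05 ± 0.18, adjusted p = 3.57e-10, limma).

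Of 21 other genes of fatty acid and triglyceride synthesis, 8 were higher in grafts than in MEFs (38.1%, against 29.9% of all genes), with Mlxipl, the carbohydrate-responsive factor of lipogenesis, at 7.20 ± 0.71 (adjusted p = 7.31e-06, limma) and Thrsp, a lipogenic protein, at 5.74 ± 0.77 (adjusted p = 6.37e-05, limma). In prostate 7 of 19 were higher and 2 lower (36.8% and 10.5%, against 27.8% and 20.5%), with Scd3 at 4.93 ± 0.85 (adjusted p = 1.28e-04, limma) and Elovl4, the elongase of very long chains, at -3.32 ± 0.26 (adjusted p = 5.54e-08, limma). Of 14 genes of fatty acid oxidation, 4 were higher in prostate than in MEFs (28.6%, near the 27.8% of all genes) and 7 in grafts (50%, against 29.9%), led by the peroxisomal enzyme Ehhadh (4.18 ± 0.11 and 4.02 ± 0.61). Ehhadh was at 10.27, 8.97, 11.32, 7.54 and 11.53 in graft 1 to graft 5 and so highest in the 3 grafts with the most Kap, and the part of kidney tissue was not tested. Of 7 enzymes of NADPH supply, Taldo1 alone passed in prostate against MEFs (1.63 ± 0.08, adjusted p = 6.00e-10, limma). That is 14.3% as higher, against 27.8% of all genes. Me3 and Idh1 passed as lower in prostate than in grafts (28.6%, against 23.0% of all genes).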

How the data were processed

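RNA-seq libraries (unstranded TruSeq kit) of 6 MEF, 6 prostate and 7 renal graft samples were used. The submitters' processing notes name bcl2fastq 1.8.4, TopHat, Cufflinks, DESeq and mm9. The authors deposited log2 values of DESeq-normalized reads per gene, in tables of 17 and 2 samples that were normalized separately. Values from 11.5 to 15 were all whole reads (within 0.05) times a constant of the sample, which gave the depth, while lower values carry added scatter, so count tests were not run. Linear values were obtained with an offset of 1.6105 for filters and levels per exon length (GENCODE M1, mm9).

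Within the first table, 2 groups at a time were fitted with limma 3.58.1 in R 4.3.3 (lmFit, eBayes with trend) to the deposited values of genes with a mean linear value of at least 10, and p-values were adjusted by Benjamini-Hochberg over all genes tested. Data were also simulated as independent normal values with the SD of each gene and 200 genes changed by 2 on the log2 scale. Of these, 174, 130 and 146 were recovered, with 1, 4 and 5 false calls, in prostate against MEF (14560 genes), graft against MEF (16121) and prostate against graft (16353). The simulated samples held no close pairs, so false calls that come from the MEF pairs could not appear. Exact two-sided permutation tests of single genes, whose smallest p is 0.0022 for 6 against 6 and 0.0043 for 5 against 6, were an alternative. Further alternatives changed the pseudocount, filter, scaling, fit, fold minimum and libraries. MEF pair means and the omission of the 3 grafts with the most Kap were added after seeing the data.

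The 36 genes and all lists were chosen with earlier results of these data known. Values per sample are given for the regulators and, per comparison, the 5 largest changes in each direction among genes that passed without overlap. Proteins and some other genes of the study are not reported here. Motifs were searched on both strands with Python 3.11.15.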

Additional observations from a re-analysis of the deposited data

Results flagged for a closer look

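In 6 of 105 sets of a gene and a group, the highest or lowest sample stood apart from the rest of its group by Dixon's test at the 95% level, where chance gives about 1 in 20, or 5.25. Acat2 was apart in all 3 groups: 8.15 in prostate 1 against 8.48 to 8.64 in the other prostates, 8.57 in graft 4 against 9.26 to 9.51 and 9.69 in MEF 3 against 9.80 to 9.85. Nsdhl was at 8.31 in prostate 1 against 8.66 to 8.78. Msmo1 was at 10.28 in prostate 5 against 9.97 to 10.08. Fads1 was at 9.86 in graft 4 against 10.60 to 10.79.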

How the results depend on the processing

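Of 804, 840 and 770 log2 fold changes of single genes under other settings in prostate against MEF, graft against MEF and prostate against graft, 775, 789 and 733 kept their direction and their side of the threshold. The settings with no minimum fold and with permutation tests reused the main fit and changed only the rule for passing. The permutation rule used unadjusted p and changed 0 of 35 genes in each comparison. No paired analysis was possible because the labels give no replicate numbers shared between the groups. The counts of genes that passed moved by over 1.5 times in few settings. In prostate against MEF the 5 higher genes became 3 after quantile normalization and 8 with no minimum fold, and ranged from 3 to 5 with 1 library left out (3 without prostate 1 or MEF 2). With no minimum fold, the 13 lower genes of graft against MEF became 22, and the 2 higher and 5 lower genes of prostate against graft became 4 and 14. Counts over all genes rose too. With no minimum fold, 6544 of 14560 genes were higher in prostate and 4088 of 16121 lower in grafts, each against MEF. In prostate against graft 3978 and 5115 of 16353 were then higher and lower. The 5 lower genes of prostate against graft became 2 without the 3 grafts with the most Kap. Directions that reversed belonged to differences that had not passed. After quantile normalization, Scd2 was at 0.26 in prostate and 0.32 in grafts against MEF, and in grafts against MEF Srebf1 was at 0.24, Pmvk at -0.013 and Tm7sf2 at -0.82. In prostate against graft, Acly was then at -0.12, Acaca at 0.088, Fasn at -0.19 and Scd2 at -0.069. After a median shift, Srebf1 was at 0.03 in grafts against MEF, and Mvk at -0.018, Acly at -0.001 and Fasn at -0.026 in prostate against graft. Without graft 4 and graft 5, Srebf1 was at 0.25 against MEF and at -0.008 in prostate against graft, where Insig2 was at 0.04 and Elovl7 at 0.013. Without the 3 grafts with the most Kap, Srebf1 was at 0.088 against MEF, and in prostate against graft Mvk was at -0.027, Fdps at -0.25, Fdft1 at -0.092, Lss at -0.11, Msmo1 at -0.21, Fasn at -0.13 and Acss2 at 0.39. With 1 library left out, Srebf1 ranged from -0.17 to 0.10 in grafts against MEF, and in prostate against graft Mvk ranged from -0.003 to 0.10, Fdps from -0.001 to 0.20 and Fasn from -0.11 to 0.26. The causes were not tested. Of 105 levels per length, 45 moved by more than their SD with the longest transcript in place of all exons, and Scd2 and Acacb held their ranks. In the 250 bases before the start alone, 22 genes in place of 23 held CCAAT, and the other motif counts were equal. Of the 36 genes, 35 were above the level of 3 reads in the libraries of the first table. Graft 6 and graft 7, with fewer reads, are single libraries.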
